A study of Rattus norvegicus with 6 samples.

Results

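The genes described here are 5 members of the pathway that carries growth hormone and prolactin signals into the liver cell: the receptors Ghr and Prlr, the transcription factors Stat5a and Stat5b, and the feedback inhibitor Cish. They were chosen by symbol, as all probe sets that the array annotation assigns to one of these symbols alone. This gave 12 probe sets (3 for Ghr, 5 for Prlr, 2 for Stat5a, 1 for Stat5b and 1 for Cish) among 8740 that are not array controls, and 5 genes of 4736 with a single-symbol probe set. The samples are livers of male Sprague Dawley rats, hybridised to 6 Affymetrix U34A rat arrays. The NASH group (n = 3), named for nonalcoholic steatohepatitis, received a liquid diet with 70% corn oil at a daily 220 kcal per kg of metabolic mass (body weight to the power of 3/4), and the Control group (n = 3) a diet with 5% corn oil at 187 kcal on the same basis. Both were fed by total enteral nutrition for 3 weeks, so fat content and energy supply differ together between the groups. No source used here says whether each array holds a separate animal, and the p-values measure the spread between these arrays, which may be technical.

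Growth hormone and prolactin bind related receptors of the class I cytokine family, which have no kinase of their own. Hormone binding activates the Janus kinase JAK2 on the receptor, which phosphorylates STAT5A and STAT5B. The STAT5 proteins then enter the nucleus, bind the palindrome TTCNNNGAA and switch on target genes. In liver these include Igf1, Igfals, the inhibitor Socs2 and Cish, which encodes the cytokine-inducible SH2 protein that dampens the same receptors. In rats the pituitary releases growth hormone in separated pulses in males and more evenly in females, and this sets many sex differences of liver expression. Prlr is typically expressed at a higher level in female than in male rat liver.

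Cish is the member whose promoter carries the STAT5 palindrome most densely, and its window is shown for that reason. The sequence covers 250 bases before and 50 bases after the annotated start (RefSeq, GRCr8, chr8:116850719-116851018, plus strand), with each TTCNNNGAA in capitals. Because the motif is its own reverse complement, 1 search covers both strands.
Cish: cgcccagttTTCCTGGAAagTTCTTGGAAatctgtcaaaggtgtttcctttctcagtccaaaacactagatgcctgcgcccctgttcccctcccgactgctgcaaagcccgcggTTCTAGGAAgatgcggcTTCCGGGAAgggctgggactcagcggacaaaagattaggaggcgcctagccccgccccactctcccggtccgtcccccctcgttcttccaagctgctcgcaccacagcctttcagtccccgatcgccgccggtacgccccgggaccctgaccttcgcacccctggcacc

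The window holds 4 matches, which begin 241, 230, 136 and 119 bases before the start and do not overlap. Of 33469 RefSeq windows of the same length, 8.87% held at least 1 match, 0.547% at least 2 and 0.00598% (2 windows) at least 4. RefSeq lists a pair of starts for Prlr, and the second window (GRCr8, chr2:60909409-60909708, plus strand) has 1 match, which begins 176 bases before the start and has the same 9 letters as the third Cish match.
Prlr: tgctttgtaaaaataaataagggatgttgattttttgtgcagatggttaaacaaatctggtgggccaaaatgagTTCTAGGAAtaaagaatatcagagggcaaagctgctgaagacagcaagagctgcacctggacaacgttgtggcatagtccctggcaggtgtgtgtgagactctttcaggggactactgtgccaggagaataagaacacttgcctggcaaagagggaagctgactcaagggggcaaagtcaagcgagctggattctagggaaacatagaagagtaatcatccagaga

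The first Prlr window and those of Ghr, Stat5a and Stat5b hold no match to these letters. Stat5a and Stat5b are immediate neighbours on chromosome 10 in the RefSeq gene table, and Ghr and Prlr both lie on chromosome 2. A match is a description of the letters, and binding was not measured in these samples.

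Between the diets, 1 Prlr probe set was higher and the Cish probe set lower in every NASH array than in every Control array, while Ghr and Stat5b overlapped, and no member passed the adjusted threshold. Values are deposited MAS5 signals, listed for arrays 1, 2 and 3 of a group in that order, or the log2 of quantile-normalized signal plus an offset of 2.28, called log2 here. Differences are NASH minus Control on that log2 scale and make the change of a dim probe set look smaller than it is. A probe set was called at a Benjamini-Hochberg adjusted p under 0.05 in limma. Of the 12 probe sets, 9 passed the filter on dim signals and were tested. Prlr M34083_at and both Stat5a probe sets did not pass the filter and have values only. None of the 9 was called (0 of 9, against 0.133% of the 5244 probe sets tested), 3 had an unadjusted p under 0.05 (Prlr L48060_s_at, Prlr M19304_at and Cish, against 7.88% of those tested), and the groups did not overlap for 2 (Prlr L48060_s_at and Cish, against 14.3% of those tested). M19304_at had a mean log2 of 5.90 in NASH and 3.52 in Control, with the filter at 3.95. Its entry into these counts therefore depended on the group where it was high.

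Among the arrays, trimmed mean deposited signals lay between 73.6 and 117. Control 3 had the highest 3' to 5' signal ratios, 5.07 for actin and 2.04 for Gapdh, against 2.15 to 2.93 and 1.08 to 1.29 in the other 5 arrays. NASH 2 carried fat and muscle transcripts: the summed normalized signal of 8 adipose markers of 9 on the list was 3959 there and 542 to 638 in the other NASH arrays, against 468 to 490 in Control arrays. For 9 muscle markers of 11 the sum was 2600 in NASH 2 and 190 to 213 in the other NASH arrays, against 151 to 242 in Control arrays. Hepatocyte markers (12 of 13) summed to 38424 to 40471 in NASH and 40183 to 41893 in Control, and no marker was at 0. NASH 2 was also highest for leukocyte markers (9 of 11), at 711, with 396 to 417 in the other NASH arrays, against 391 to 514 in Control arrays. It was highest for stellate and endothelial markers (7 of 7), at 782, with 312 to 444 in the other NASH arrays, against 375 to 567 in Control arrays. Pancreas markers (6 of 6) summed to 594 to 602 in NASH and 628 to 757 in Control. Fewer cells of a type and less RNA per cell cannot be told apart in such samples.

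The receptor Ghr binds growth hormone, and its brightest probe set was at nearly the same level under both diets. S49003_s_at had deposited signals of 1424, 612 and 596 in NASH arrays, against 1361, 736 and 814 in Control arrays. The groups overlapped, and in each the array numbered 1 was highest. Mean log2 was 9.77 ± 0.48 in NASH and 9.80 ± 0.24 in Control (SD, n = 3 each). The difference was −0.03 ± 0.26 (standard error), with a 95% interval from −0.63 to 0.57 and a limma adjusted p of 0.981.

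The other Ghr probe sets, Z83757mRNA_at and Z83757mRNA_g_at, are named for 1 source sequence and followed each other closely. Z83757mRNA_at had deposited signals of 131, 70.4 and 68.2 in NASH arrays, against 190, 66.6 and 13.0 in Control arrays. Z83757mRNA_g_at had 118, 63.8 and 56.8 in NASH arrays, against 172, 64.5 and 19.1 in Control arrays. In both, Control 1 was the highest and Control 3 the lowest of the 6 arrays. Their differences were 0.71 ± 0.71 and 0.45 ± 0.59 (limma adjusted p = 0.814 and 0.859), and both turned negative without Control 3, −0.15 and −0.22. Control 3 is the array with the highest 3' to 5' ratios, and the part of that in the Ghr values was not tested.

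Prlr, the prolactin receptor, spanned the widest log2 range over the 6 arrays among the 5 genes, and its 5 probe sets did not agree. L48060_s_at had deposited signals of 113, 98.5 and 52.9 in NASH arrays, against 5.77, 21.7 and 46.3 in Control arrays. Every NASH array lay above every Control array, before and after normalization, as for 6.56% of probe sets tested in that direction. Mean log2 was 6.53 ± 0.29 in NASH and 4.36 ± 1.34 in Control. The difference was 2.17 ± 0.59, or 4.5-fold, with a 95% interval from 0.81 to 3.53. It did not pass the threshold (limma adjusted p = 0.437), and its unadjusted p stood at rank 75 of 5244. The NASH arrays spanned 0.53 on the log2 scale and the Control arrays 2.68, so most of the spread lay among the Control arrays.

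M19304_at had a difference of similar size but with overlap. Its deposited signals were 109, 48.4 and 29.2 in NASH arrays, against 4.24, 3.15 and 49.8 in Control arrays. Control 1 and Control 2 were near the offset, while Control 3 lay above NASH 2 and NASH 3. The difference was 2.37 ± 0.87, or 5.19-fold, with a limma adjusted p of 0.564. Without Control 3 it was 3.46 (adjusted p = 0.0942), and because 2 of 3 Control values are this dim, its fold depends on the offset. With an offset of 1 the difference was 2.62, with 16 it was 1.35 and with 50 it was 0.73.

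M74152_s_at had deposited signals of 52.2, 69.2 and 26.1 in NASH arrays, against 10.1, 19.3 and 73.4 in Control arrays. Control 3 was the highest of all 6 arrays. The difference was 0.99 ± 0.63 (limma adjusted p = 0.696), and it was 1.75 without Control 3 and 0.40 without Control 1. M34083_at, which was not tested, had 16.2, 16.2 and 3.05 in NASH arrays, against 1.84, 5.17 and 21.0 in Control arrays, again with Control 3 highest, and a difference of 0.52. Without Control 3 that difference was 1.29, and without Control 1 it was 0.0032.

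U34897mRNA_at stood apart from the other Prlr probe sets, with nearly level signals. It had 26.2, 29.5 and 22.9 in NASH arrays, against 27.1, 38.9 and 26.2 in Control arrays. The difference was −0.06 ± 0.23, with a 95% interval from −0.60 to 0.48 (limma adjusted p = 0.958). In the other 4 probe sets Control 3 exceeded the mean of Control 1 and Control 2 by 1.92 to 3.33 on the log2 scale, while here it differed from them by −0.06. The part of the 3' to 5' ratios of Control 3 in these values was not tested. Prlr is transcribed into long and short receptor forms, and which form each probe set reads is stated in no source used here.

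**Figure D1:**
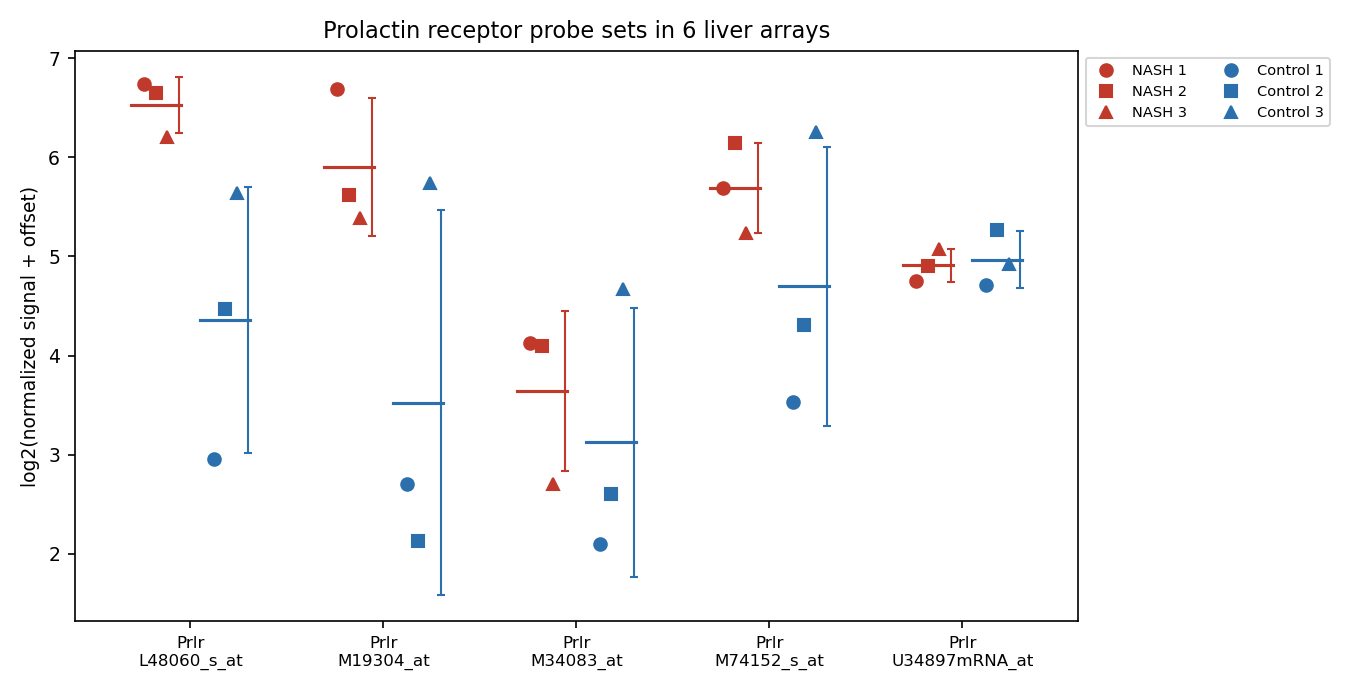
Log2 signal of the 5 Prlr probe sets in each array, with the NASH arrays in red left of the Control arrays in blue; horizontal lines are group means and bars are SD (n = 3 each). Control 3 is the highest Control array in 4 of the 5 probe sets, and L48060_s_at is the probe set in which all NASH arrays lie above all Control arrays.

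Cholangiocytes, the bile duct cells, also express Prlr in the rat. The summed signal of the 5 measured cholangiocyte markers of 7 on the list was 97.1 to 141 in NASH arrays, against 119 to 140 in Control arrays, so the groups overlapped. NASH 2, with its fat and muscle transcripts, was the highest NASH array for M74152_s_at and not for L48060_s_at or M19304_at. Without NASH 2 the difference was 2.13 for L48060_s_at, 2.52 for M19304_at, 0.77 for M74152_s_at and 0.29 for M34083_at. The part of the other transcripts of NASH 2 in these values was not tested further.

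Of the transcription factors Stat5a and Stat5b, near copies of each other, Stat5b showed no difference beyond the array spread, and Stat5a was not tested. Stat5b, the main liver form, had deposited signals on X91988_at of 36.2, 45.6 and 21.4 in NASH arrays, against 38.4, 37.0 and 41.8 in Control arrays. Mean log2 was 5.23 ± 0.27 in NASH and 5.29 ± 0.18 in Control. The difference was −0.06 ± 0.22, with a 95% interval from −0.58 to 0.46 (limma adjusted p = 0.956). The Stat5a probe sets were dim. U24175_at had deposited signals of 5.75, 6.90 and 7.07 in NASH arrays, against 16.3, 6.58 and 13.3 in Control arrays, and U25137_at had 24.2, 5.75 and 8.09 in NASH arrays, against 14.2, 13.0 and 4.87 in Control arrays. Groups overlapped for both, and the differences were −0.48 and 0.20. The first lay between −0.91 and −0.26 with any 1 array left out. The second turned to −0.24 without NASH 1 and −0.07 without Control 3. STAT5 is regulated by phosphorylation, which RNA levels do not measure.

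Cish, the STAT5 target with 4 palindromes in its promoter window, was the member on which NASH arrays lay lower. AF065161_at had deposited signals of 33.7, 27.8 and 23.5 in NASH arrays, against 72.3, 76.1 and 40.03 in Control arrays. Every NASH array lay below every Control array, before and after normalization, as for 7.76% of probe sets tested in that direction. Mean log2 was 5.01 ± 0.16 in NASH and 5.93 ± 0.43 in Control. The difference was −0.92 ± 0.26, or 1.89-fold lower, with a 95% interval from −1.51 to −0.32. It did not pass the threshold (limma adjusted p = 0.443), with an unadjusted p at rank 87 of 5244. The difference lay between −1.14 and −0.74 with any 1 array left out. It was −0.79 over the 4 arrays with a recorded hybridization time. NASH 3 and Control 2 had no recorded time, and the difference of that pair was −1.20. For Prlr L48060_s_at the same comparisons gave 2.45 and 1.73. Where a time was recorded, hybridization of NASH 1 and NASH 2 came 106 minutes after the earliest array, Control 3, and that of Control 1 after 1 minute. Run and diet cannot be told apart there.

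**Figure D2:**
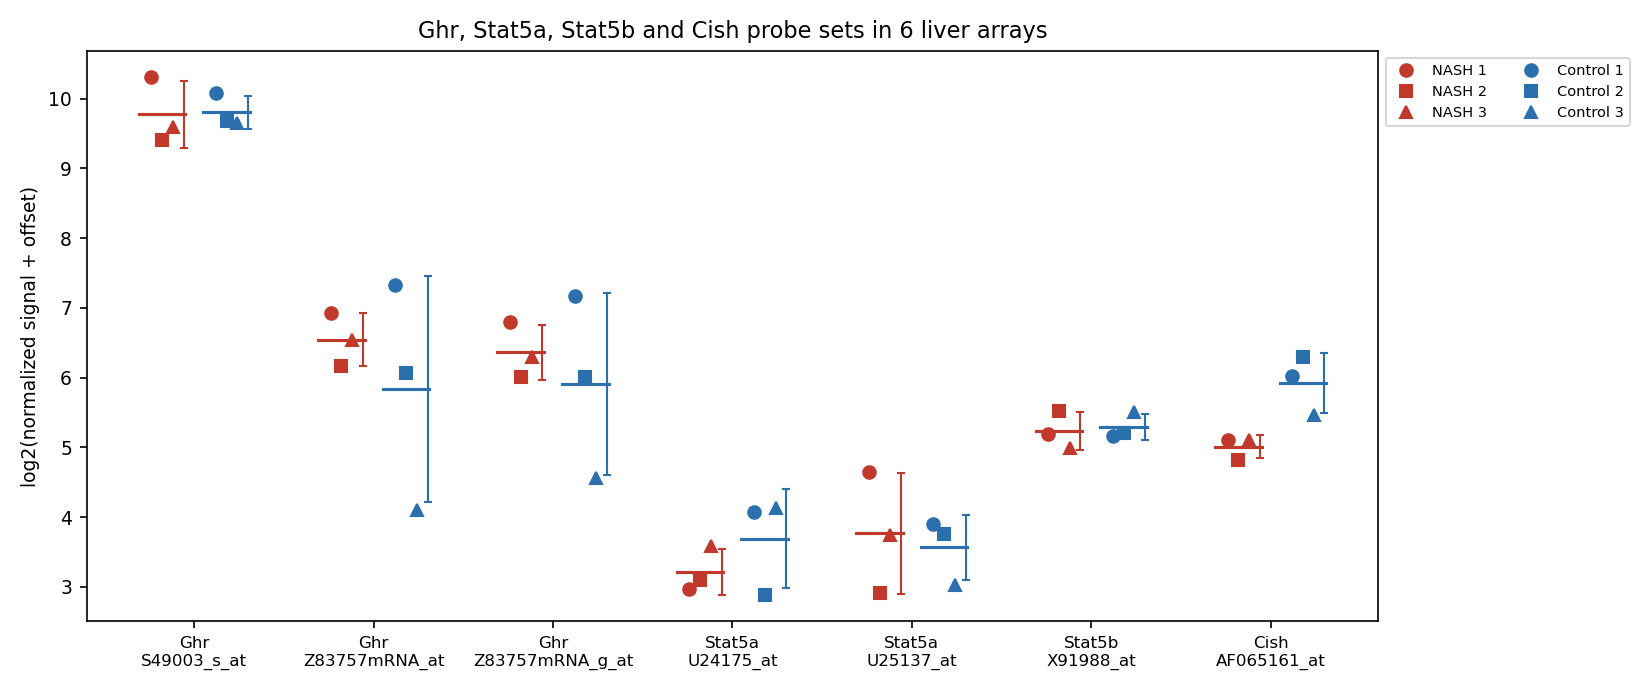
Log2 signal of the Ghr, Stat5a, Stat5b and Cish probe sets in each array, with the NASH arrays in red left of the Control arrays in blue; horizontal lines are group means and bars are SD (n = 3 each). Cish is the probe set here whose groups do not overlap, and Control 3 is lowest for both Z83757 probe sets of Ghr.

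**Figure D3:**
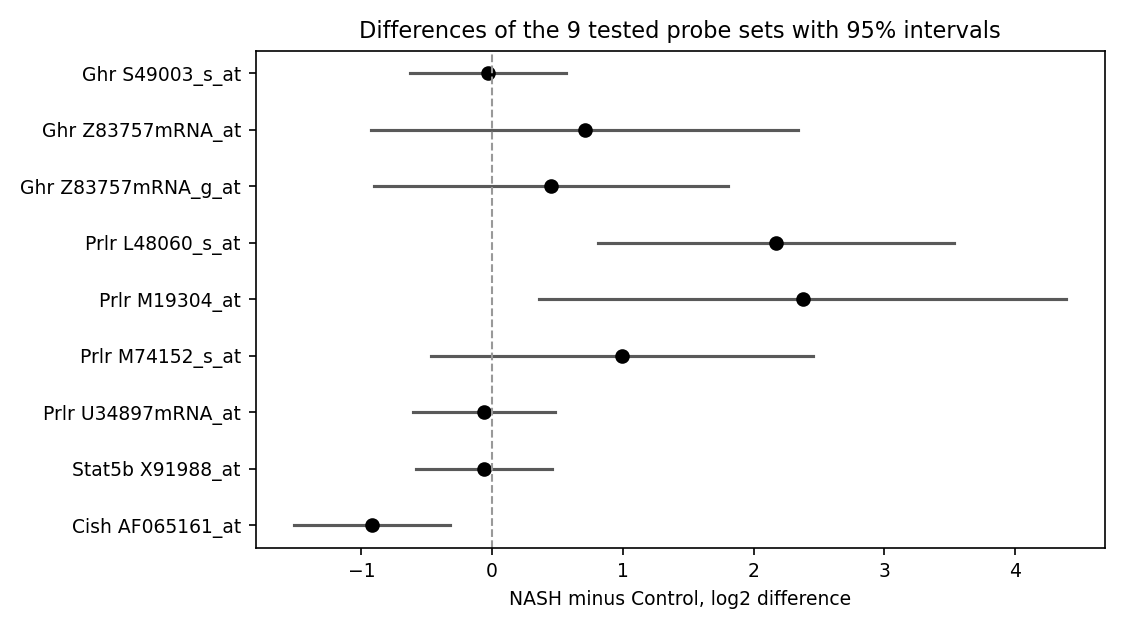
NASH minus Control difference on the log2 scale for the 9 tested probe sets (points) with 95% intervals from limma (lines). The intervals of Prlr L48060_s_at, Prlr M19304_at and Cish do not include 0, and none of the 9 passed the adjusted threshold.

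The differences of Cish and of 4 Prlr probe sets kept their sign whichever array was left out, while that of Prlr U34897mRNA_at, near 0, did not. L48060_s_at ranged from 1.46 without Control 1 to 2.78 without Control 3, with limma adjusted p-values from 0.150 to 0.906. M19304_at ranged from 1.71 without Control 2 to 3.46 without Control 3. Without Control 1, M74152_s_at fell to 0.40 and the untested M34083_at to 0.0032, next to 0. Cish had limma adjusted p-values from 0.221 to 0.906 over these fits, the lowest without Control 3. None of these fits called a member probe set.

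**Figure D4:**
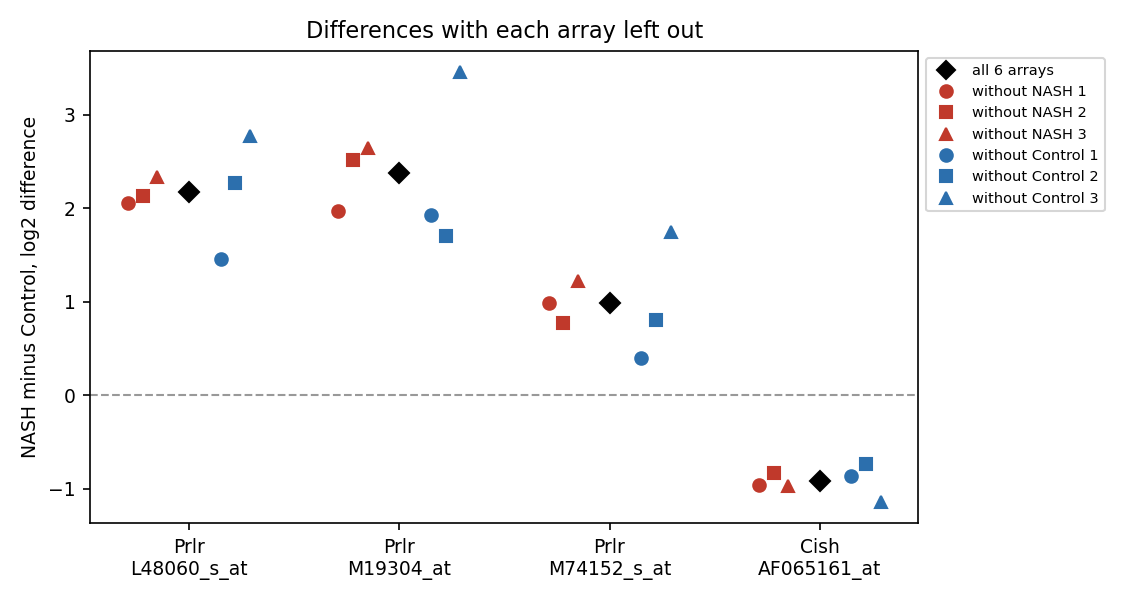
NASH minus Control difference on the log2 scale with all 6 arrays (black) and with each NASH array (red) or Control array (blue) left out, for 3 Prlr probe sets and Cish. Differences are largest in size without Control 3 in all 4, from 1.75 to 3.46 for Prlr and −1.14 for Cish.

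The other genes of these pathways were described by their counts and medians, with the brightest tested probe set standing for a gene. The median difference over all 5244 probe sets was −0.02. Of 21 ligands and other class I cytokine receptors, 9 were measured above the filter, 3 with positive and 6 with negative differences and a median of −0.24. The median was 0.16 without Control 2 and −0.03 without NASH 3. None was called. The interleukin-6 receptor Il6r had log2 values of 6.94, 6.83 and 6.37 in NASH arrays, against 7.30, 7.82 and 7.11 in Control arrays, without overlap. Its difference was −0.70 ± 0.26 (limma adjusted p = 0.581). The receptor chains Csf2rb, Il4r and Il6st differed by −0.57, 0.33 and 0.23, with overlap. The pituitary hormone transcript Prl lay below the filter on all 3 of its probe sets. The growth hormone transcript Gh1 passed it but was dim, with deposited signals from 12.5 to 31.3. Its mean log2 was 4.28 in NASH and 4.55 in Control, with overlap and the filter at 3.95. Whether so dim a signal stands for expression in liver was not tested.

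Of 9 Janus kinases and other STATs, 5 were above the filter, 2 with positive and 3 with negative differences and a median of −0.0018. Stat2, which acts in interferon signalling, had log2 values of 5.65, 5.76 and 5.67 in NASH arrays, against 6.19, 6.38 and 6.46 in Control arrays. The groups did not overlap, and the difference was −0.65 ± 0.18 (limma adjusted p = 0.443). Jak2, the kinase of both hormone receptors, differed by −0.0018 ± 0.25 on the log2 scale. Jak1 differed by 1.00 ± 0.66, with a log2 value of 2.40 in Control 3, against 4.95 to 5.40 in the other 5 arrays. Stat6 differed by −0.45 and Stat3 by 0.21, with overlap.

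Of 25 SOCS proteins, phosphatases and adaptors, 18 were above the filter, 4 with positive and 14 with negative differences and a median of −0.15. None was called. The phosphatase Ptpn1, which dephosphorylates JAK2 and STAT5 in cultured cells, had log2 values of 7.06, 7.25 and 7.25 in NASH arrays, against 6.66, 6.61 and 6.64 in Control arrays on M33962_g_at. That difference was 0.55 ± 0.18 (limma adjusted p = 0.507), while its other 3 tested probe sets differed by 0.23, 0.12 and −0.34. The STAT3 inhibitor Pias3, the phosphatase Ptpn11 and the adaptor Grb10 differed by −0.61, −0.73 and −0.47, with overlap. Socs2, the close relative of Cish that STAT5 also induces, differed by −0.20 ± 0.34 (limma adjusted p = 0.898), and Socs3 lay below the filter. Ptpn11 and Socs2 had mean log2 values below the filter of 3.95 in NASH (3.83 and 3.88) and above it in Control (4.56 and 4.08). Their place among the 18 therefore depended on the group where they were high. The same holds for Socs2 among the growth hormone regulated genes.

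Of 13 growth hormone regulated liver genes, 11 were above the filter, 6 with positive and 5 with negative differences and a median of 0.05. None was called. Igf1, the main endocrine product of growth hormone action in liver, had log2 values of 10.41, 10.79 and 10.89 in NASH arrays, against 10.52, 10.43 and 10.18 in Control arrays on its brightest probe set. The groups overlapped, with a difference of 0.32 ± 0.17 (limma adjusted p = 0.641), and the other 4 Igf1 probe sets differed by −0.17 to 1.16. Of the genes for the plasma carriers of IGF1, Igfals differed by 0.16 on its brightest probe set, with overlap. Its other probe sets differed by 0.52 and 0.40, without overlap after normalization (limma adjusted p = 0.618 for each). As deposited both overlapped, with NASH 3 below Control 1 (124 against 135 on rc_AA924289_s_at and 210 against 219 on S46785_at). Igfbp3 differed by −0.64, with a second Igfbp3 probe set at 0.33. The serpin Serpina3n differed by 0.46, the transcription factor Onecut1 by −0.66, the cell cycle inhibitor Cdkn1a by 0.51 (−0.18 on its other probe set) and the receptor Egfr by −0.09, while Serpina1, Hnf4a and Cebpb differed by 0.13, 0.05 and −0.15. For Onecut1 and Igfbp3 M31837_at, Control 1 and Control 2 lay above all NASH arrays, while Control 3 was the lowest of the 6 arrays for Onecut1 and within the NASH arrays for Igfbp3.

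Many sex-predominant liver genes of the rat depend on the pattern of growth hormone release. Of 11 male-predominant genes, 6 were above the filter, 4 with positive and 2 with negative differences and a median of 0.12. The median was −0.15 without Control 3, −0.03 without NASH 1 and 0.28 without Control 1. The male cytochrome P450 Cyp2c11 had log2 values of 11.45, 11.63 and 11.70 in NASH arrays, against 12.02, 11.88 and 11.73 in Control arrays, a difference of −0.29 ± 0.12 (limma adjusted p = 0.618), while its other probe sets differed by −0.24 and 0.06. Cyp3a2 had log2 values of 11.47, 11.44 and 11.65 in NASH arrays, against 10.73, 11.35 and 10.86 in Control arrays. Its difference was 0.54 ± 0.17 (limma adjusted p = 0.503), and Cyp2a2 differed by 0.32 ± 0.14 (limma adjusted p = 0.618). For both, every NASH array lay above every Control array after normalization, as for 6.56% of probe sets tested in that direction. As deposited this held for Cyp3a2 only. Cyp2a2 then overlapped, with 1488, 1046 and 1022 in NASH arrays, against 1312, 906 and 1031 in Control arrays. Obp3 differed by −0.54, with overlap, and by −0.82 on its other probe set, without overlap. Of 8 female-predominant genes, 5 were above the filter, and all 5 had positive differences, with a median of 0.53. Over all 5244 probe sets tested, 2469 differences were positive. None of the 5 genes was called. The sulfotransferase Sult2a1 had log2 values of 10.76, 10.91 and 10.74 in NASH arrays, against 10.24, 10.29 and 10.29 in Control arrays, and a difference of 0.53 ± 0.12 (limma adjusted p = 0.309). Cyp2a1 had 10.14, 9.84 and 10.21 in NASH arrays, against 9.13, 9.56 and 8.999 in Control arrays, and a difference of 0.84 ± 0.20 (limma adjusted p = 0.348). Cyp2c7 differed by 0.66 and Sult2a2 by 0.35, with overlap. Cyp2c12, the classical female-specific form, ranged from 5.05 to 9.54 in NASH arrays and from 5.97 to 8.72 in Control arrays, and differed by 0.38 ± 1.18. Cyp2 and Sult2a genes have close relatives, and a probe may bind transcripts of more than 1 of them.

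**Figure D5:**
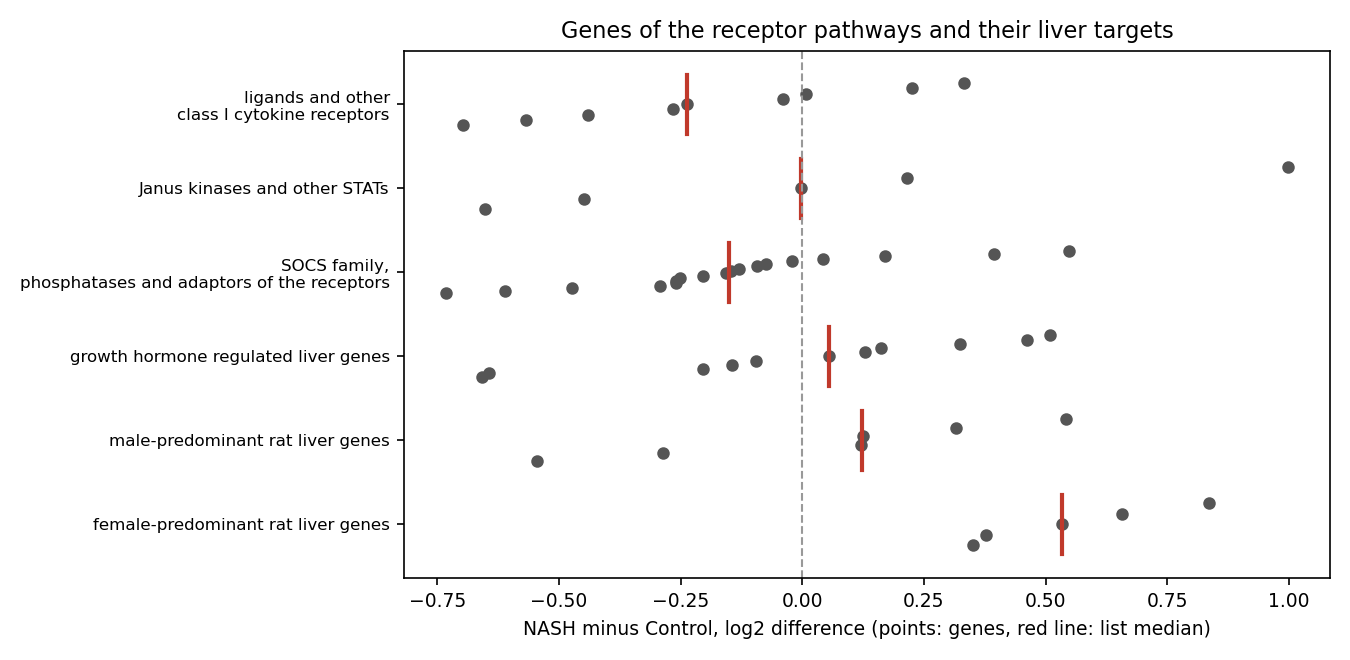
NASH minus Control difference on the log2 scale for each gene above the filter (points) in 6 lists, with list medians as red lines. The 5 female-predominant genes all lie above 0 with a median of 0.53, and no gene shown passed the adjusted threshold.

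Genes whose pattern over the 6 arrays was most like that of a member were named by the root mean square difference between centred log2 profiles. For Cish these were Zfp455l1 (0.11), the glucose-6-phosphate transporter Slc37a4 (0.13) and Smad3 (0.15), the signal carrier of the TGF-beta receptor. Slc37a4 had log2 values of 8.29, 7.81 and 7.89 in NASH arrays, against 9.03, 9.35 and 8.56 in Control arrays. For Prlr L48060_s_at the nearest were Coro1a (0.66), N5 (0.66) and Impa2 (0.79). The value is not scaled to a profile's spread, which was widest for L48060_s_at among the member probe sets compared. It therefore does not rank likeness between members. For Ghr S49003_s_at they were Col4a5 (0.07), Mapk14 (0.10) and Resp18 (0.11), and for Stat5b they were Lbh (0.05), Copb2 (0.06) and P4hb (0.08). S49003_s_at and its 3 nearest probe sets were all highest in NASH 1. Zfp455l1 and Smad3 lay below the filter of 3.95 in every NASH array, and Coro1a and N5 in Control 1 and Control 2. Their place among the probe sets compared therefore depended on the group where they were high. Coro1a is also on the leukocyte marker list and had its highest log2 value, 6.27, in NASH 2, the array highest for those markers.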

How the data were processed

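Liver RNA of 3 NASH and 3 Control samples was measured on 1 array each. The authors deposited a linear intensity for each probe set and array, computed with MAS5 per the submitters' processing notes. Its version and its scaling and background settings are stated in no source used here. The instrument records, also deposited by the authors, hold other information (per the file headers, the array type, the tissue and the hybridization, washing and scanning steps). Groups came from the sample titles, because every description repeats the first Control's. From the deposited table, 8799 probe sets were quantile normalized, an offset of 2.28 (10th percentile of all values) was added, and log2 taken. Of 8740 without the 59 array controls, 5244 with a mean log2 above the 40th percentile (3.95) were tested with limma 3.58.1 in R 4.3.3 (lmFit, eBayes with an intensity trend; residual degrees of freedom 4, prior 3.90), Benjamini-Hochberg adjusted over all 5244. The fit was tested on simulated data. The annotation gave 1 symbol for 7006 probe sets, several for 308 and none for 1426. The number of arrays limits the precision.

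The members and lists were chosen with earlier results of these data known. Genes were named by a rule: all probe sets of the members, in each list up to 4 genes with the smallest p, every growth hormone regulated gene above the filter, and the 3 most alike probe sets of each member's brightest tested probe set. Jak2, Cyp2c12, Prl, Gh1 and Socs3 fall outside the rule and were chosen after their values were seen. The alternatives changed the filter, the offset, the scaling, the variance prior, the array weights and the threshold, or left arrays out. Others set the replicate number or the presence of a recorded hybridization time as a block. Samples with the same replicate number were checked for shared deviations from their group means (correlations 0.05, −0.02 and 0.07), so the number was not taken as a pairing. Promoter windows are from RefSeq, GRCr8.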

Additional observations from a re-analysis of the deposited data

How the results depend on the processing

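Among 21 alternative settings, the differences of Prlr L48060_s_at and M74152_s_at stayed positive and that of Cish negative in every fit, Prlr M19304_at stayed positive in the 20 that kept it above the filter, and none of the 9 tested probe sets was called in any. Apart from left-out arrays, L48060_s_at ranged from 0.96 (offset of 50) to 2.80 (array weights, limma adjusted p = 0.0843) and Cish from −1.05 (as deposited) to −0.45 (offset of 50), larger offsets shrinking differences by construction. As deposited, without scaling, the median of all probe sets was −0.17. Values near 0 changed sign, and so did those of Ghr Z83757mRNA_at (0.71 before any change of setting) and Z83757mRNA_g_at (0.45). With array weights Ghr Z83757mRNA_g_at was −0.12 and Prlr U34897mRNA_at 0.098. Over arrays with a recorded hybridization time U34897mRNA_at was 0.010 and Stat5b 0.018. Without NASH 2 and Control 2 Ghr S49003_s_at was 0.099 and U34897mRNA_at 0.095. With 1 array left out, S49003_s_at ranged from −0.31 to 0.16, Z83757mRNA_at from −0.15 to 1.44, Z83757mRNA_g_at from −0.22 to 1.07, U34897mRNA_at from −0.19 to 0.092 and Stat5b from −0.21 to 0.062; the cause was not tested. The untested Stat5a U25137_at ranged from −0.24 to 0.63 with 1 array left out, and U24175_at was −1.11 over arrays with a recorded hybridization time. The median of the cytokine receptor list was 0.16 over those arrays and 0.17 without NASH 2 and Control 2, and that of the male-predominant list was −0.06 as deposited.

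Over all probe sets, 7 were called. The number was 14 as deposited, 14 at an adjusted p under 0.1, 18 with array weights and 16 without NASH 2 and Control 2. It was 3 without the intensity trend, and 3 with the presence of a recorded hybridization time as a block. It was 1 with the replicate number as a block and 1 over arrays with a recorded hybridization time. By limma with no filter it was 0 (635 at an unadjusted p under 0.05). It lay between 0 and 17 with 1 array left out: 17 without NASH 2, 1 without NASH 1 or Control 2, and 0 without NASH 3, Control 1 or Control 3. The replicate block changed no call among the 9 tested probe sets. Dim probe sets such as those of Stat5a limit what these arrays can show.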
